A study of Mus musculus with 2 samples.

Results

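The collagen genes were taken as the protein-coding genes of the GENCODE M21 annotation whose name is Col, a number, a and a number, such as Col1a1. By this rule there were 44 among 21924 protein-coding genes: 11 fibrillar, 6 basement membrane, 9 fibril-associated and 18 other collagens. Chromatin accessibility at these genes was measured by DNase-seq, in which the enzyme DNase I cuts DNA where it is not wrapped around nucleosomes, and stretches with many cuts are called as peaks. The study holds 1 group with 2 libraries, labelled as biological replicates 1 and 2. Both are of gastrocnemius, a muscle of the calf, and the mice were B6CASTF1/J females at the age of 10 days. B6CASTF1/J mice are hybrids of a laboratory strain and a wild-derived strain. The label of each sample names 3 females, but whether their tissue was pooled is not given in the sources used here. There was no treatment, mutant or second tissue, so collagen genes are set beside all protein-coding genes in the same libraries, and with 1 group no test was made.

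Collagens are secreted or membrane-bound proteins built from chains that wind around each other in groups, often as products of different genes. The fibrillar chains form the cables of tendon, bone and the connective tissue layers of muscle, the type IV chains form the mesh of basement membranes, and the fibril-associated chains sit on the surface of fibrils. In muscle, most collagen is known to come from fibroblast-like cells between the fibres, and muscle fibres lie in a basement membrane surrounded by type VI microfibrils. The libraries are of whole tissue, so a low peak in all cells cannot be told apart from a high peak in a few.

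A promoter peak is a deposited peak within 1 kb of an annotated transcription start site (TSS) of the gene, and a distal peak lies over 1 kb from every protein-coding TSS but no more than 50 kb from one of the gene, both measured to the nearest edge of the peak. Peaks of the libraries are called shared where they overlap over at least 50% of the length of either. For genes and sets of genes, shared peaks are counted as peaks of replicate 1, and several of them can match the same peak of replicate 2. Heights are the deposited signal, which the authors normalized to read depth. Replicate 1 had 114758 peaks and replicate 2 had 26804, a ratio of 4.28, and the smallest step between heights was 1.80 times larger in replicate 2. The shared ones made up 16.7% of the peaks in replicate 1 and 70.3% in replicate 2. Counts in replicate 1 are therefore also given for its 26804 tallest peaks, with heights of at least 2.71, called the equal-number list. The muscle label was checked against 12 muscle markers, of which 4 (33.3%) had a shared promoter peak, below the 45% of all genes, among them Ckm, muscle creatine kinase, at 2.63 in replicate 1 and 3.46 in replicate 2. Acta1, skeletal actin, had a promoter peak in replicate 2 alone (1.22), and Myod1, a master regulator of muscle fate, in replicate 1 alone (1.59). Among markers of other cells, shared promoter peaks were found at 3 of 7 tenocyte, 2 of 8 fibro-adipogenic, 3 of 8 chondrocyte, 1 of 7 osteoblast, 0 of 7 endothelial, 3 of 7 Schwann cell, 0 of 6 keratinocyte and 4 of 8 neuronal genes, beside the same 45%. Promoter peaks in replicate 1 were found at 8 of 8 neuronal, 9 of 12 muscle and 3 of 8 fibro-adipogenic genes, against 66.7% of all genes. In the equal-number list of replicate 1 these were 7, 3 and 0 genes, against 49.6%, and in replicate 2 they were 5, 5 and 3, against 51.4%.

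Of the 44 collagen genes, 16 (36.4%) had a shared promoter peak, against 45% of all protein-coding genes. In replicate 2, 20 collagen genes (45.5%) had a promoter peak, against 51.4% of all genes. In replicate 1 there were 28 (63.6%), against 66.7% of all genes. In the equal-number list of replicate 1 this number was 7 (15.9%), against 49.6% of all genes, so the gap between collagen genes and the rest was wider in the tall peaks of replicate 1 than in replicate 2. Collagen promoter peaks were low: the median of the tallest peak per gene was 1.47 at collagen genes and 6.30 at all genes in replicate 1, and 1.25 at collagen genes and 2.03 at all genes in replicate 2. Of the collagen genes with a promoter peak, 27 of 28 in replicate 1 and 16 of 20 in replicate 2 lay below the median of all genes.

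**Figure D1:**
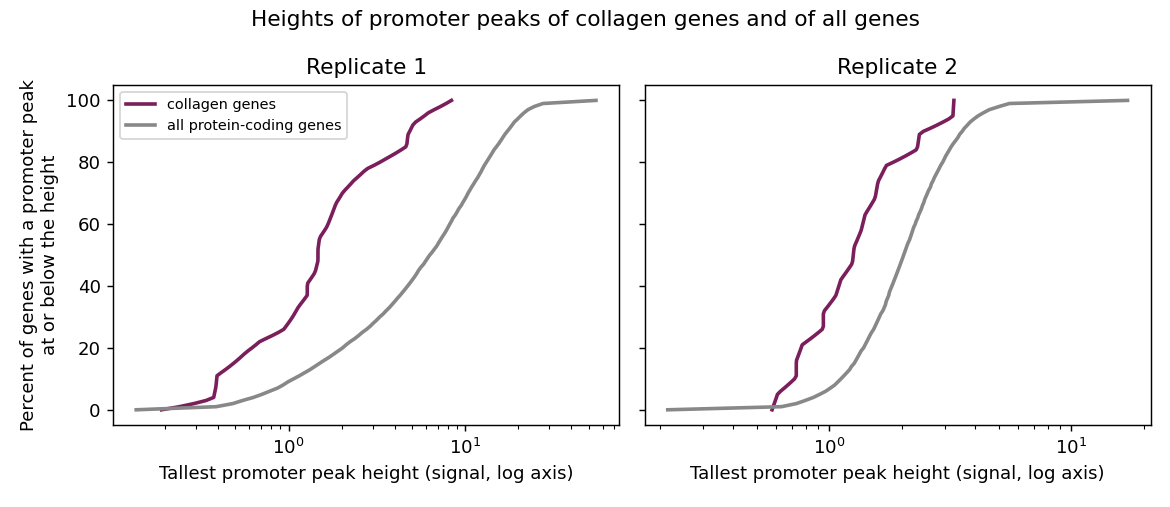
Cumulative percent of genes (vertical axis) against the height of the tallest promoter peak in depth-normalized signal (log horizontal axis), for collagen genes and all protein-coding genes that have such a peak, in each library. The collagen curve lies left of the other over nearly its whole length, with medians of 1.47 against 6.30 in replicate 1 and 1.25 against 2.03 in replicate 2.

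Both libraries had some promoter peak, overlapping or not, at 17 collagen genes, against 50.9% of all genes. Promoter peaks in replicate 1 alone were found at 11 collagen genes, against 15.7% of all genes, and in neither library at 13, against 32.9%. Promoter peaks in replicate 2 alone were found at 3 collagen genes (6.82%), namely Col3a1, Col5a3 and Col6a1, against 0.461% of all genes, which is 101 genes. Although it had more peaks, replicate 1 thus lacked a promoter peak at 3 of the 20 collagen genes (15.0%) with one in replicate 2. Over all genes this share was 0.896%. By class, shared promoter peaks were found at 4 of 11 fibrillar, 3 of 6 basement membrane, 4 of 9 fibril-associated and 5 of 18 other collagen genes. These shares rest on few genes each.

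**Figure D2:**
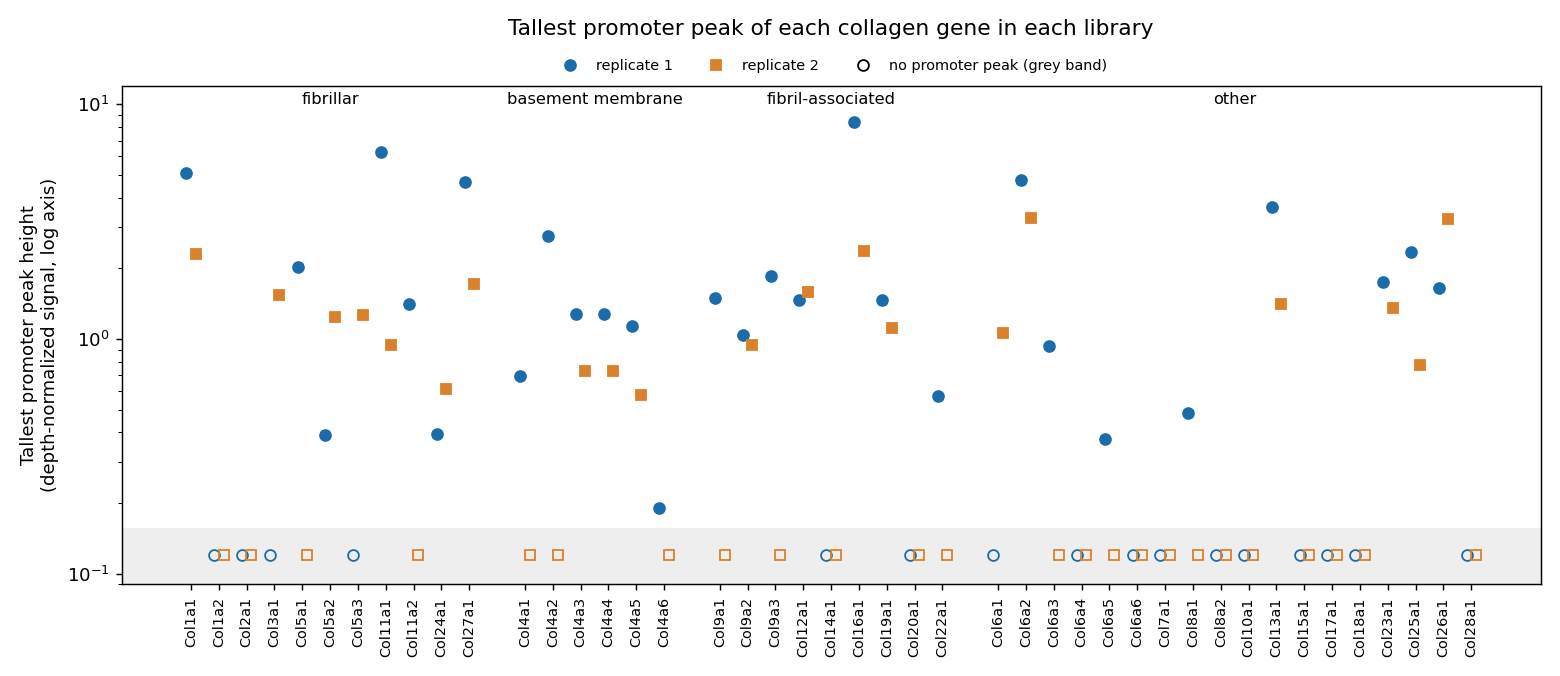
Height of the tallest promoter peak of each of the 44 collagen genes in replicate 1 (circles) and replicate 2 (squares), in depth-normalized signal on a log axis, with genes grouped by class. Open symbols in the grey band mark genes without a promoter peak in that library, and the tallest points are Col16a1 in replicate 1 (8.37) and Col6a2 in replicate 2 (3.27).

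Among the fibrillar collagens, Col1a1, which encodes a chain of the main collagen of tendon, bone and muscle connective tissue, had its tallest promoter peak at 5.11 in replicate 1 and at 2.30 in replicate 2. These were not the same peak. The peak of replicate 2 lay over the first TSS, with its centre 27 bp downstream, and replicate 1 had none there, while the peak of replicate 1 lay in an intron, 947 bp downstream of the first TSS, where replicate 2 had a peak of 1.99. Col1a2, whose product winds together with that of Col1a1, had no promoter peak in either library. The lowest deposited false discovery rate (FDR) within 1 kb of a Col1a2 TSS was 0.00785 in replicate 1 and 0.000694 in replicate 2, and the longer peak lists, which the authors also deposited, held 2 promoter peaks there in each library. Col3a1, the collagen of reticular fibres, had a peak of 1.54 in replicate 2 over its start region and none in replicate 1. The longer list of replicate 1 held 1 promoter peak at Col3a1, and the lowest FDR near its TSSs in that library was 0.00123.

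The type V chains, which are built into type I fibrils and are known to limit their thickness, were split between the libraries. Col5a2 had a shared peak over an exon at its first TSS, with 0.388 in replicate 1 and 1.24 in replicate 2. Col5a1 had promoter peaks in replicate 1 alone (tallest 2.03), and Col5a3 in replicate 2 alone (1.27). The longer list of replicate 1 also held no promoter peak at Col5a3, where the lowest FDR in that library was 0.0479. Col11a1, a chain of the thin fibrils of cartilage, had the tallest fibrillar promoter peak of replicate 1, at 6.29, and a shared peak of 0.943 in replicate 2. Its lowest FDR was 1.33e-88 in replicate 1 and 1.19e-06 in replicate 2. Col11a2, its chain partner in cartilage, had promoter peaks in replicate 1 alone (tallest 1.41).

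Col27a1, a fibrillar collagen known from cartilage, had promoter peaks of 4.67 and 1.27 in replicate 1 and of 1.47 and 1.72 in replicate 2, of which the pair of 1.27 and 1.72 was shared and centred 2147 bp downstream of the first TSS, near an internal one. Col24a1, a fibrillar collagen known from bone, had low promoter peaks in both libraries, 0.394 in replicate 1 and 0.611 in replicate 2, that did not overlap. Col2a1, the main collagen of cartilage, had no promoter peak in either library. The fibrillar class was therefore at 7 of 11 genes (63.6%) in each library, against 66.7% of all genes in replicate 1 and 51.4% in replicate 2. Of the 11 genes, 5 had a promoter peak in both libraries, against 50.9% of all genes.

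The peaks at the Col1a1 intron and at the start of Col11a1 are shown because they were the tallest fibrillar promoter peaks of replicate 1, and that of Col25a1, a membrane collagen, because it lies at an internal start and holds the same motifs as that of Col11a1. They are read 5′ to 3′ on the strand of the gene from the mm10 genome, without any annotated exon. Capitals mark every match, on either strand, to 11 short motifs. These were the CCAAT box bound by NF-Y, the GGGCGG box bound by Sp1, the AP-1 site TGANTCA, the E-box CANNTG of muscle and many other factors, the TEAD site GGAATG, the RUNX site TGTGGT, the ETS core CCGGAA, the SMAD site CAGACA, the TATAAA box, the NFI motif (TTGGC and GCCAA with 5 bases between them) and the MEF2 motif (CTA and TAG with 4 bases between them). In the first sequence the capitals are a GGGCGG box on the other strand and a MEF2 motif, and in the others CCAAT and GGGCGG boxes.
Col1a1 first intron region, chr11:94937081-94937260, plus strand: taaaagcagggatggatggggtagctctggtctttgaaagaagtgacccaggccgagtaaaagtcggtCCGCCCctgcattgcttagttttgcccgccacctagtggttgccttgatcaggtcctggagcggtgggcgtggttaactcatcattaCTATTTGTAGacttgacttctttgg
Col11a1 upstream of the first TSS, chr3:114030361-114030539, plus strand: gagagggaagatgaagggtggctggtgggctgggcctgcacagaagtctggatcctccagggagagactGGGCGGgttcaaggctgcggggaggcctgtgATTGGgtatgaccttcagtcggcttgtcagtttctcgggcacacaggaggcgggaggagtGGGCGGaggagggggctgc
Col25a1 upstream of an internal TSS, chr3:130180601-130180860, plus strand: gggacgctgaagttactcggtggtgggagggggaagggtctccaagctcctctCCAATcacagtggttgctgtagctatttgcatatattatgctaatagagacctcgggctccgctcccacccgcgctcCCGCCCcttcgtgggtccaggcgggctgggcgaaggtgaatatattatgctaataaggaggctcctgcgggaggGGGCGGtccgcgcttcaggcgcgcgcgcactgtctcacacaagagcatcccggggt

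In the promoter windows given by RefSeq for 35 of the 44 genes, GGGCGG was found in 23 of 38 collagen windows (60.5%), against 47.8% of 20150 windows of all genes, and CCAAT in 13 (34.2%), against 37.8%. The MEF2 motif was found in 5 collagen windows (13.2%), against 3.40%, and CANNTG in 20 (52.6%), against 68.7%. The ETS core CCGGAA was found in 0 of the 38 collagen windows, against 19.2% of all. Within the shared promoter peaks themselves, GGGCGG was found in 9 of 22 collagen peaks (40.9%), against 53.8% of 12365 peaks of all genes, so its order was the other way round. CCAAT was found there in 2 of 22 (9.09%), against 23.7%, and CCGGAA in 2 of 22, against 18.5%. These are matches of letters and say nothing of binding.

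Among the basement membrane collagens, promoter peaks were found in replicate 1 at 6 of 6 genes, against 66.7% of all genes, and in replicate 2 at 3 of 6, against 51.4%. In the equal-number list of replicate 1 there was 1 of 6, against 49.6%. Type IV genes lie in head-to-head pairs. Col4a3 and Col4a4, which encode chains known from the kidney filter and have TSSs 72 bp apart, had 1 peak in common, of 1.28 in replicate 1 and 0.729 in replicate 2, and it is counted for both genes. Col4a5, the X-linked partner of these chains, had a shared peak of 1.14 in replicate 1 and 0.579 in replicate 2, the lowest value among the collagen genes with a promoter peak there. Col4a6, 1309 bp from Col4a5 on the other strand, had only a peak of 0.191 in replicate 1, the lowest value among the collagen genes with a promoter peak in that library.

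Col4a1 and Col4a2, which encode the chains found in basement membranes of nearly every tissue, have TSSs 21 bp apart. They had 1 peak of 0.692 in common in replicate 1 and none in replicate 2. Col4a2 had a further, taller peak of 2.75 in replicate 1 at an internal TSS. In replicate 2 the lowest FDR within 1 kb of a TSS was 0.000559 for both genes. The longer peak lists held 4 promoter peaks in replicate 2 for each of these genes, and 3 for each of Col4a3 and Col4a4.

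Among the fibril-associated collagens, Col16a1 had the tallest promoter peak of any collagen gene in replicate 1. Of its 4 promoter peaks there, 3 (8.37, 6.53 and 5.60) lay at internal TSSs 29211 to 31421 bp downstream of the first and were not shared with replicate 2. At the first TSS it had a shared peak of 6.06 in replicate 1 and 2.36 in replicate 2. Col12a1, found in tendon and the connective tissue of muscle and mutated in a congenital muscle disease, had 5 promoter peaks in replicate 1 and 4 in replicate 2, with the tallest at 1.47 and 1.59, spread over its start region. It had the most shared promoter peaks of the 44 genes, 4 as counted in replicate 1. Col19a1, known in the mouse from differentiating muscle cells, had 2 shared peaks, and its tallest peak was 1.47 in replicate 1 and 1.11 in replicate 2.

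Type IX collagen is a cartilage collagen of 3 chains. Col9a2 had a shared peak of 1.04 in replicate 1 and 0.943 in replicate 2, while Col9a1 (1.498) and Col9a3 (1.86) had promoter peaks in replicate 1 alone. Those of Col9a1 lay at internal TSSs, centred 16697 and 52968 bp downstream of the first. Col22a1, known from the junction of muscle and tendon, also had a promoter peak in replicate 1 alone (0.573). Col14a1, a tendon and muscle collagen, and Col20a1 had none in either library, although Col14a1 had a shared peak of 3.71 in replicate 1 centred at -1269 bp from its first TSS, just outside the promoter window.

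Among the other collagens, the type VI chains form the microfibrils around muscle fibres and are mutated in Ullrich and Bethlem muscle disease. Col6a2 had a shared peak of 4.74 in replicate 1 and 3.27 in replicate 2, the tallest promoter peak of the 44 genes in replicate 2. Col6a1, whose product joins that of Col6a2, had 4 promoter peaks in replicate 2 (tallest 1.06) and none in replicate 1, and no interval with a deposited FDR lay within 1 kb of a TSS in replicate 1, where the lowest in replicate 2 was 1.32e-16. Col6a3, the remaining main chain, had a peak of 0.937 in replicate 1 alone. The alternative chains Col6a4, Col6a5 and Col6a6 had a promoter peak at Col6a5 in replicate 1 alone (0.376) and none otherwise.

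Membrane collagens, which keep a segment in the cell membrane, had a shared promoter peak at 3 of 4 genes, against 45% of all genes. At the first TSS alone Col23a1 was the only one of the 4 with a shared peak, against 41.3% of all genes. Col13a1, known from the neuromuscular junction, had a shared peak of 3.65 in replicate 1 and 1.40 in replicate 2, and it lay 101 kb downstream of the first TSS near an internal one. Col25a1, known in the mouse to be needed for motor axons to enter muscle, had its shared peak of 2.34 in replicate 1 and 0.772 in replicate 2 at an internal TSS 49 kb downstream. Col23a1 had 3 peaks of replicate 1 at its first TSS that were shared with 2 of replicate 2, with the tallest at 1.75 in replicate 1 and 1.35 in replicate 2. Col17a1, the membrane collagen of skin attachment plaques, had none.

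Col26a1 had a shared peak of 1.65 in replicate 1 and 1.62 in replicate 2 at an internal TSS 127 kb downstream of its first. Its tallest promoter peak in replicate 2, at 3.24, overlapped a peak of 3.34 of replicate 1 that lay just beyond the 1 kb limit. Col8a1, a short-chain collagen of vessels and the eye, had a peak in replicate 1 alone (0.483). Col7a1 of the skin, Col8a2, Col10a1 of growth plate cartilage, Col15a1, Col18a1 and Col28a1 had no promoter peak in either library.

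When promoter peaks were counted at the first TSS of each gene alone, 12 collagen genes (27.3%) had a shared peak, against 41.3% of all genes. Col13a1, Col25a1, Col26a1 and Col27a1 were lost in that count because their shared peaks lay at internal TSSs. Collagen genes had a median of 4 annotated TSSs and all genes of 3, and their median length was 114388 bp against 17410 bp.

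Promoters rich in CpG are accessible in most tissues, so genes were cut into 3 classes of equal size by the ratio of observed to expected CpG in the 500 bp to each side of a TSS. The median ratio was 0.460 for collagen genes and 0.627 for all genes, and 14, 24 and 6 collagen genes fell in the low, middle and high class. In the low class, 7 of 14 collagen genes had a promoter peak in replicate 1, against 15.8% of all genes of the class, and 4 of 14 in replicate 2, against 4.90%. In the equal-number list of replicate 1 it was 0 of 14, against 4.39%, so the higher share in the whole list of replicate 1 came from its lower peaks. The 4 in replicate 2 were Col3a1, Col5a2, Col6a1 and Col24a1. In the high class the order was the other way round in replicate 2: 2 of 6 collagen genes had a promoter peak, against 87.0% of all genes. Those without were Col4a1, Col4a2, Col5a1 and Col15a1. In the whole list of replicate 1 the high class had 5 of 6, against 98.3%. In the equal-number list of replicate 1 it had 1 of 6, against 85.9%. In the middle class it was 14 of 24 collagen genes in replicate 2, against 62.4%, and 6 of 24 in the equal-number list of replicate 1, against 58.6%. In the whole list of replicate 1 the middle class had 16 of 24, against 86.0%.

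Heights stayed low within the classes. In replicate 1 the median tallest peak was 0.394, 1.75 and 1.75 at collagen genes of the low, middle and high class, and 1.45, 4.77 and 9.18 at all genes of these classes. In replicate 2 it was 1.15, 1.19 and 1.47 at collagen genes, and 1.34, 1.88 and 2.18 at all genes. With CpG counted in 250 bp to each side, 5 of the 8 collagen genes then in the high class had a shared promoter peak, against 77.5% of all genes. With 500 bp it was 2 of 6, against 78.0%.

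**Figure D3:**
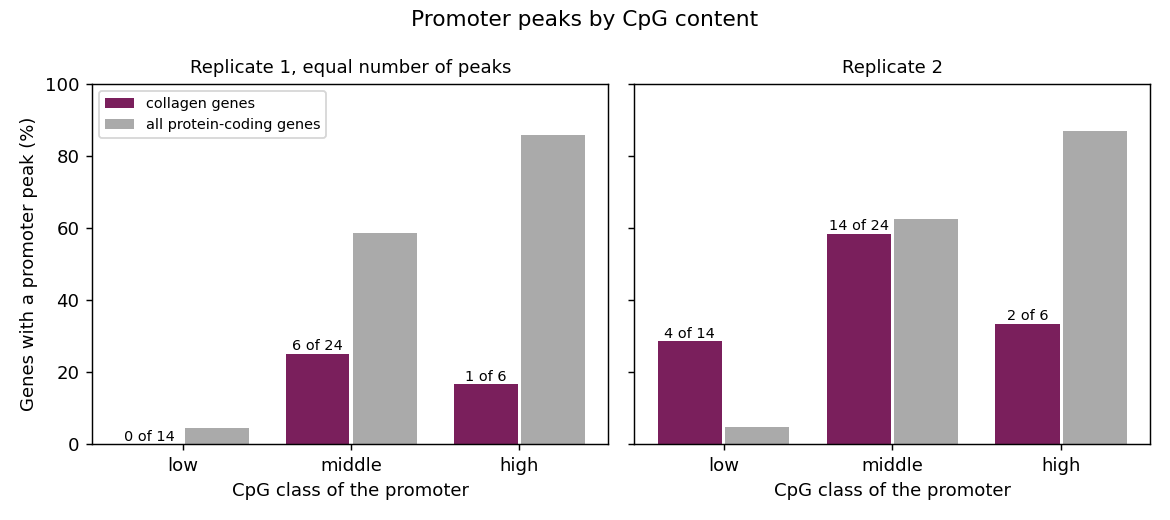
Percent of genes with a promoter peak (vertical axis) in the low, middle and high class of CpG content, for collagen genes (left bar of each pair, with counts) and all protein-coding genes (right bar), in the equal-number list of replicate 1 and in replicate 2. In replicate 2, 4 of 14 collagen genes of the low class have a peak against 4.90% of all genes, and 2 of 6 of the high class against 87.0%, while the low class has 0 of 14 against 4.39% in the equal-number list of replicate 1.

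Footprints are short protected stretches within accessible DNA. In replicate 1 the median number of deposited footprints in the promoter peaks of a gene was 5.5 at collagen genes and 6 at all genes, and in replicate 2 it was 3.5 at collagen genes and 5 at all genes. Col12a1 had the most in replicate 2 (22) and Col16a1 in replicate 1 (17). An interval with an FDR under 0.001 lay within 1 kb of a TSS at 29 collagen genes in replicate 1 (65.9%, against 67.2% of all genes) and at 24 in replicate 2 (54.5%, against 52.8%). Of the 16 collagen genes without a promoter peak in replicate 1, 6 (37.5%) also had no interval with a deposited FDR, against 84.6% of all genes without a peak. In replicate 2 it was 14 of 24 (58.3%), against 80.6%. The other collagen genes without a promoter peak had an interval with an FDR of at most 0.05 near a TSS.

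Distal peaks were common around collagen genes. There were 328 distinct distal peaks in replicate 1 (63 in the equal-number list), 72 in replicate 2 and 43 shared. At least 1 shared distal peak was found at 27 of 44 collagen genes (61.4%), against 35.4% of all genes. At least 1 distal peak was found at 42 collagen genes in replicate 1, against 84% of all genes, and at 27 in replicate 2, against 40.1%. The mean number of shared distal peaks per gene was 1.02 at collagen genes and 0.566 at all genes. Long genes with many TSSs reach more sequence, and with the first TSS of each gene alone the means were 0.568 at collagen genes and 0.480 at all genes. By class there were 12 shared distal peaks at fibrillar, 4 at basement membrane, 6 at fibril-associated and 21 at other collagen genes. In the same order the means per gene were 1.09, 0.833, 0.667 and 1.22, against 0.566 at all genes. With the first TSS alone they were 0.455, 0.333, 0.556 and 0.722, against 0.480, so the fibrillar and basement membrane classes were then below all genes.

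**Figure D4:**
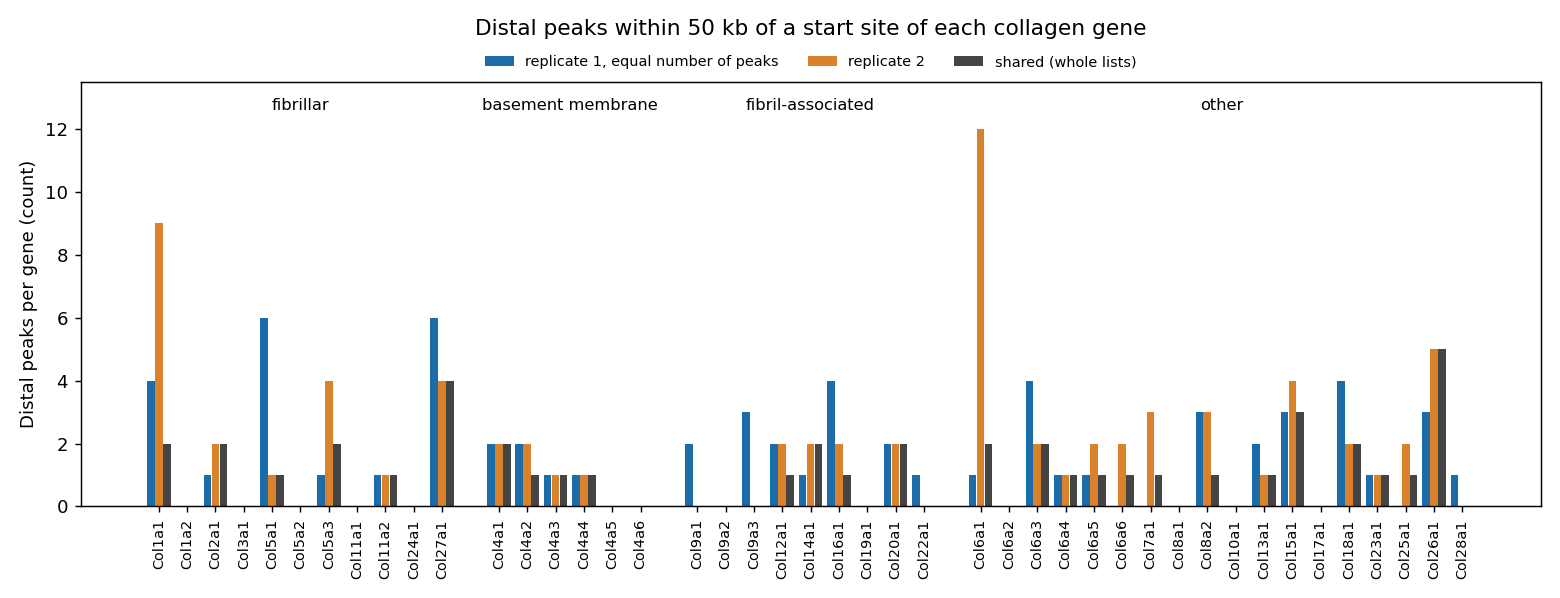
Number of distal peaks within 50 kb of a TSS of each collagen gene (vertical axis) in the equal-number list of replicate 1, in replicate 2, and shared between the whole lists. Replicate 2 has 12 at Col6a1 and 9 at Col1a1, and Col26a1 has the most shared peaks as counted in replicate 1, 5.

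Of the 43 shared distal peaks, 22 lay in an intron (51.2%), 2 touched an exon and 19 lay between genes, where 36.8% of all 5220 shared distal peaks lay in an intron. Within each library the intron shares were closer. In replicate 1 it was 52.13% near collagen genes against 51.03% of all distal peaks, and in replicate 2 it was 41.67% against 39.26%. The part of gene length in these shares was not tested. For 31 of the 43 shared peaks the nearest protein-coding TSS was that of a collagen gene, and 22 also had another gene's TSS within 50 kb. Their median height in replicate 1 was 3.50, against 3.09 over all shared distal peaks, so their median was not below that of all genes, as it was at promoters.

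Col26a1 had the most shared distal peaks as counted in replicate 1, 5, of which the tallest reached 6.64 in replicate 1 and 3.96 in replicate 2 in an intron. Among these 5, that of 3.34 in replicate 1 matched a peak of 3.24 in replicate 2. The latter lay within 1 kb of a TSS and counts as a promoter peak there. Col27a1 had 4, of which that of 15.9 in replicate 1, in an intron, was the tallest distal peak near any collagen gene, with 1.72 in replicate 2. Col15a1, a collagen of the muscle basement membrane zone without a promoter peak in either library, had 3, all in its introns, at 2.11, 1.03 and 0.973 in replicate 1 and at 2.22, 1.34 and 1.42 in replicate 2. The next 9 genes were tied at 2 shared distal peaks: Col1a1, Col2a1, Col4a1, Col5a3, Col6a1, Col6a3, Col14a1, Col18a1 and Col20a1.

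Col1a1 and Col6a1 stood out in replicate 2. Col6a1 had 12 distal peaks there, against 6 in replicate 1 and 1 in its equal-number list, and all 12 lay between -7363 and 9367 bp from the first TSS, where negative is upstream. Most were low: 8 of them had heights between 0.332 and 0.590. Its 2 shared distal peaks were centred at -2393 and -7273 bp, with heights of 2.24 and 1.82 in replicate 1 and at 1.95 and 2.07 in replicate 2. Col1a1 had 9 distal peaks in replicate 2 and 9 in replicate 1, of which 2 were shared, and 3 of those of replicate 2 lay in the second part of the gene between 11571 and 14100 bp downstream, where replicate 1 had none. The fibro-adipogenic markers, of cells known to make these collagens, had promoter peaks at 3 of 8 genes in each library, with summed heights of 3.80 in replicate 1 and 4.15 in replicate 2, and Dcn, Ly6a, Lum and Pi16 had none in either. The part of these cells in the difference between the libraries was not tested.

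**Figure D5:**
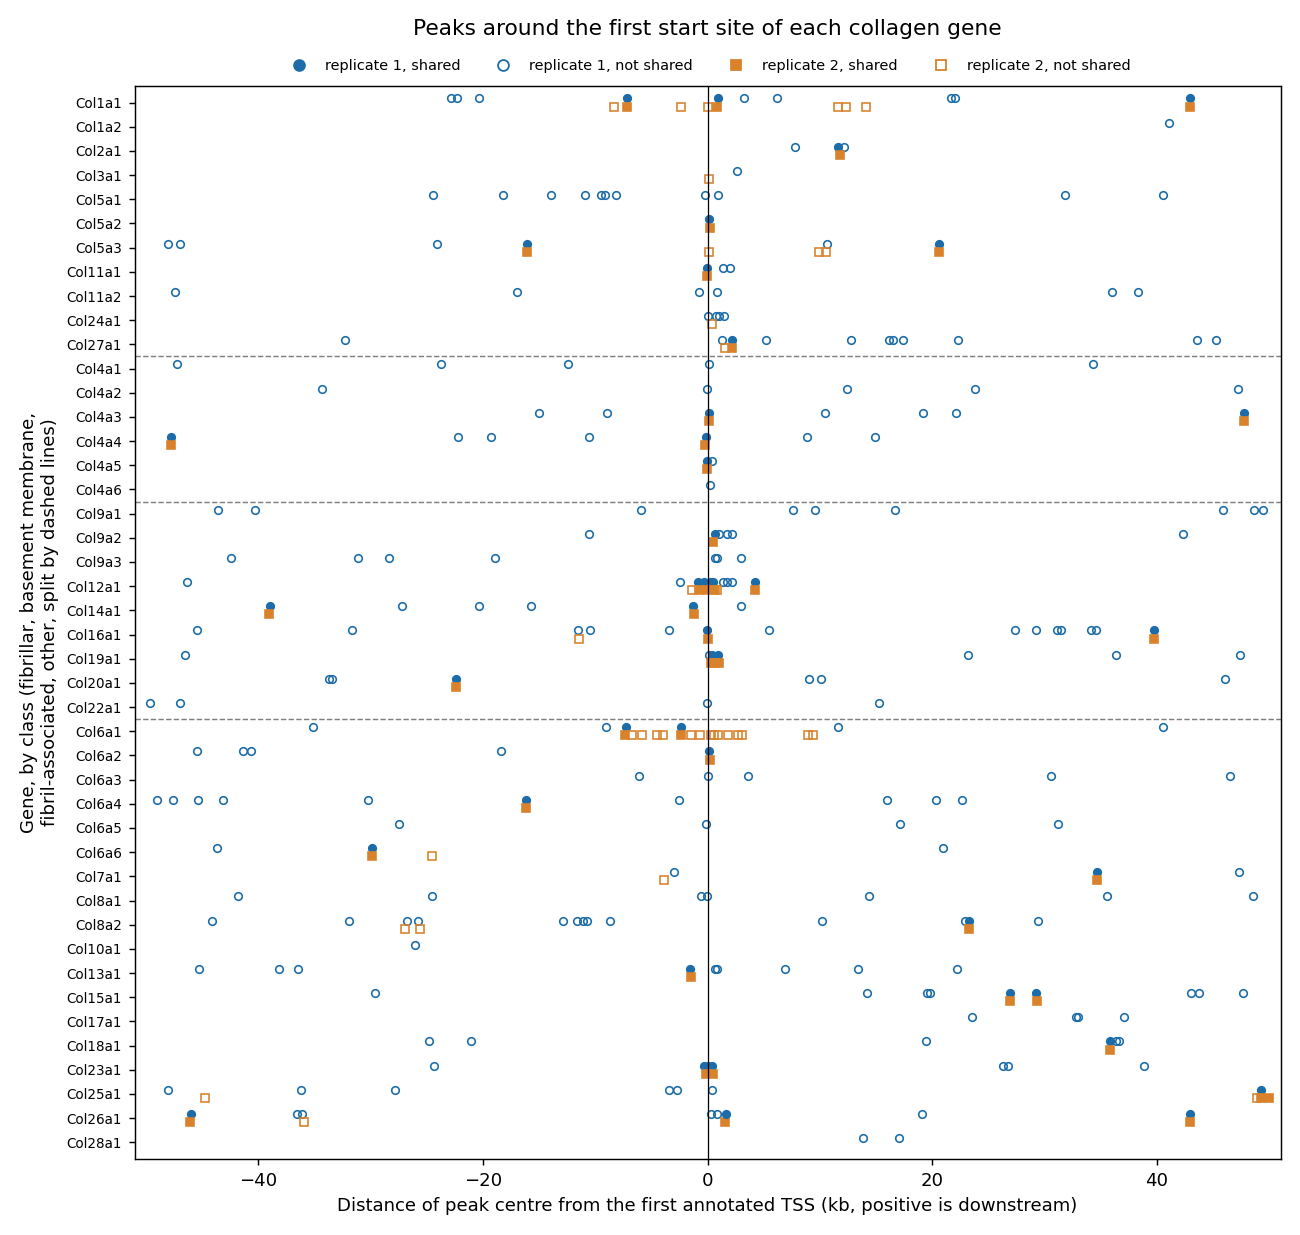
Distance of promoter and distal peak centres from the first TSS of each collagen gene in kb (horizontal axis, positive downstream), with replicate 1 as circles and replicate 2 as squares, filled where shared. Peaks beyond 50 kb of the first TSS are not drawn, and the run of squares at Col6a1 is the 12 distal and 4 promoter peaks of replicate 2.

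Height ranks were summed over both libraries, and the 5 shared distal peaks near collagen genes with the best sums are shown. Replicate 1 has more peaks, so its ranks weigh more in the sum. The peaks of 15.9 in replicate 1 at Col27a1 and of 3.96 in replicate 2 at Col26a1 are not among the 5. The 5 lay near Col5a3 (12.2 in replicate 1 and 3.56 in replicate 2), Col16a1 (8.60 and 5.54), Col23a1 (9.59 and 3.09), Col1a1 (13.3 and 2.15) and Col18a1 (6.92 and 3.57). That near Col5a3 was nearest to the TSS of Rdh8 and that near Col1a1 to the TSS of Sgca, so their link to the collagen gene rests on distance alone, while the other three lay in introns of the collagen gene. They are read from mm10 on the strand of the collagen gene, and capitals mark matches on either strand to CANNTG and to a core of the motif of the insulator protein CTCF (CC, then AG after 3 bases, then GGC after 2 more), which was added after the sequences were seen.
Col5a3 distal, chr9:20831021-20831240, minus strand: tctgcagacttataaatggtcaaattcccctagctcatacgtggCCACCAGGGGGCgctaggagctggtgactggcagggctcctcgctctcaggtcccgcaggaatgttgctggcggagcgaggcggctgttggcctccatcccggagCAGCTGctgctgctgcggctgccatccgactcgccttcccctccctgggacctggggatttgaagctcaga
Col16a1 distal, chr4:130087441-130087640, plus strand: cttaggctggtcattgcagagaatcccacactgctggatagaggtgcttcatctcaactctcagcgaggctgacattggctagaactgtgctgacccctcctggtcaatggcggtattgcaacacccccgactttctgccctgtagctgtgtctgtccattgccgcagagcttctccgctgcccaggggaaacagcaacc
Col23a1 distal, chr11:51539721-51539920, plus strand: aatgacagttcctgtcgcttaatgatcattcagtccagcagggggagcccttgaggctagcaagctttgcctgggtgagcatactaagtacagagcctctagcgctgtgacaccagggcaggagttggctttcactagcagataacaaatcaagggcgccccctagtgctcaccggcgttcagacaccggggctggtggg
Col1a1 distal, chr11:94979041-94979220, plus strand: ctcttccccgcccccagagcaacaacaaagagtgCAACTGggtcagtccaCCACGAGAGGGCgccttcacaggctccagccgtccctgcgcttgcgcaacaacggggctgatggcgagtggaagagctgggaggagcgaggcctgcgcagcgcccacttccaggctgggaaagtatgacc
Col18a1 distal, chr10:77130641-77130820, minus strand: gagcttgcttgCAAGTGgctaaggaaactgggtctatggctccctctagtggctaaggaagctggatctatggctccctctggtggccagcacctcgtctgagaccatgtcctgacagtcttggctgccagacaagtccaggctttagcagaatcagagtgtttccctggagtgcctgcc

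The CTCF core was found in 2 of these 5 peaks and in 23 of the 43 shared distal collagen peaks (53.5%), against 42.7% of all shared distal peaks and 10.2% of RefSeq promoter windows. In the central 150 bp, CANNTG was found in 31 of the 43 (72.1%), against 58.9% of all shared distal peaks, and CCAAT in 9 (20.9%), against 17.4%.

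The genes that act on collagen were taken from 7 lists with 104 genes found, of which 52 (50%) had a shared promoter peak, beside the 45% of all genes. Genes for folding and modification of collagen in the endoplasmic reticulum had one at 14 of 20, led by P4hb (28.7 in replicate 1 and 3.78 in replicate 2) and P4ha1 (28.9 and 2.88), the subunits of prolyl hydroxylase. Serpinh1, the collagen chaperone HSP47, had lower peaks of 1.65 in replicate 1 and 1.93 in replicate 2, in the range of the collagen genes themselves. Transcription factors known to act on collagen genes had one at 18 of 22, led by Nfya (28.6 in replicate 1 and 4.06 in replicate 2). Basement membrane partners had one at 7 of 13, led by Hspg2, the proteoglycan perlecan (7.38 and 3.34), and Nid1 was without a peak in either library. Collagen receptors had one at 6 of 11, led by Itgb1 (13.7 and 2.66), and genes for propeptide cleavage and cross-linking at 6 of 15, led by Bmp1 and Loxl3.

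The lowest counts were those of the proteins laid down beside collagen and of a list of collagen-cutting enzymes and their inhibitors. Proteoglycans and organisers of fibrils had a shared promoter peak at 1 of 14 genes, against 45% of all genes. This was Fn1, with 5.18 in replicate 1 and 1.91 in replicate 2. No promoter peak in either library was found at 7 of the 14, among them Dcn, Fmod, Kera and Lum, against 32.9% of all genes. The list of collagenases and gelatinases had a shared promoter peak at 0 of 9, of which 3 (Timp1, Timp2 and Timp3) encode inhibitors of these enzymes. Of the 9 genes, 5 had no promoter peak in either library, among them Ctsk, Mmp2, Mmp8 and Mmp13. Among the 104 genes, Dpt, Fkbp10, Lamb2 and Postn had a promoter peak in replicate 2 alone (3.85%, against the 0.461% of all genes), as Col3a1, Col5a3 and Col6a1 did. Their heights in replicate 2 lay between 0.911 (Postn) and 2.35 (Lamb2).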

How the data were processed

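Per the labels, DNase-seq was made from gastrocnemius nuclei and, per the deposited read-me texts, peaks, intervals and footprints of each library came from its own filtered alignments on mm10. Which aligner and callers were run, and at which thresholds, is not given in the sources used here. As deposited by the authors, peak heights are a depth-normalized signal, intervals carry an FDR (a corrected p-value) of at most 0.05, and the footprint score is a constant, so footprints were only counted. The shorter of the deposited peak lists of each library was used, with 114758 and 26804 peaks, of which 1053 and 1311 overlap the peak before them. Depth in reads is unknown. Genes and TSSs came from GENCODE M21 (21924 names). Python 3.11.15, numpy 2.4.6, pysam 0.24.0 and bedtools 2.31.1 were used, and the overlap code was tested on simulated data. All members are accounted for by a rule for named genes: values for those with a promoter peak and for those with the most shared distal peaks, and up to 4 leading genes per pathway list. Serpinh1 and the genes with a peak in replicate 2 alone were named after their values were seen. The members, classes and lists were chosen with earlier results of these data known. Replicates may differ for technical reasons.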

Additional observations from a re-analysis of the deposited data

How the results depend on the processing

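Of 44 collagen genes, 16 had a shared promoter peak, against 45% of all genes. There were 28 with a promoter peak in replicate 1, against 66.7%, and 20 in replicate 2, against 51.4%. There were 43 shared, 328 replicate 1 and 72 replicate 2 distal peaks. With the longer lists 25 of the 44 had a shared promoter peak, against 53.5% of all genes. A promoter peak was then found at 37 in replicate 1, against 71.1%, and at 28 in replicate 2, against 59.7%. In these lists the share of collagen genes was not below that of all genes. Distal peaks were 93 shared, 558 in replicate 1 and 156 in replicate 2. With the taller 50% of peaks it was 6 genes shared, 18 in replicate 1 and 7 in replicate 2. Of all genes it was 33.6%, 59.1% and 39.0%. Distal peaks were then 24 shared, 176 in replicate 1 and 28 in replicate 2. With the equal-number list it was 5 genes shared and 7 in replicate 1, against 37.5% and 49.6% of all genes. Distal peaks were then 24 shared and 63 in replicate 1. Where an overlap of 50% of both peaks was asked for, 13 of the 44 genes had a shared promoter peak, a share not below the 26.5% of all genes. A distal window of 20 kb gave 23 shared, 181 replicate 1 and 43 replicate 2 distal peaks, and one of 100 kb gave 519 in replicate 1. With the first TSS alone, an alternative added after seeing the data, 24 shared and 200 replicate 1 distal peaks were left. With 1 library left out, counts ranged over 20 to 28 genes and 72 to 328 distal peaks. A CpG window of 250 bp gave 5 of 8 high-class collagen genes with a shared peak, against 77.5% of all genes of the class. With 500 bp it was 2 of 6, against 78.0%. No paired analysis was possible because there is 1 group. Read depth is unknown, and its part in the lower counts of replicate 2, whose smallest height step was 1.80 times that of replicate 1, was not tested.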
